A study of Mus musculus with 18 samples.

Results

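Hydrogen peroxide and saline were compared at the sham-operated sciatic nerve of mice, with gene expression read in the dorsal root ganglia that supply the nerve. The comparison took the 3 samples labelled Sham_H2O2 and the 3 labelled Sham_Saline, which are 6 of the 18 samples of the study, and covered all 15730 genes of the deposited count table. Sham_H2O2 mice were sham-operated with hydrogen peroxide at 13 mM, and Sham_Saline mice were sham-operated with saline. All mice were C57BL/6 animals of 6 to 8 weeks, no genetic change is named for any group, and ganglia were taken 24 hours after treatment. Each sample pooled the sciatic ganglia of 2 mice, so the samples are different animals, p-values measure the spread between pools, and differences between mice within a pool are not seen. The labels do not say where on the nerve or for how long the peroxide was applied, and no measure of oxidation in the ganglion is part of these files.

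A pair of other groups served as reference points. SNA_Saline had injury (axotomy) of the sciatic nerve with saline, and LAM had laminectomy, which is the removal of vertebral bone and leaves the sciatic nerve alone. Each of these groups also had 3 samples of 2 pooled mice, with the same strain, ages and time point. The labels of LAM name no saline, so LAM and Sham_H2O2 differ in the operation as well as in the peroxide.

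Dorsal root ganglia hold the cell bodies of sensory neurons, wrapped by satellite glia, along with Schwann cells, macrophages and vessels. Cutting the axon in the nerve starts a program in the cell body that includes the transcription factors ATF3 and JUN, neuropeptides and growth-associated proteins. Hydrogen peroxide is a product of NADPH oxidases that can oxidise cysteines of signalling proteins. At higher load it releases the transcription factor NRF2 from its inhibitor KEAP1, which raises the genes for glutathione synthesis, thioredoxin and quinone metabolism.

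The 6 libraries held between 6472476 and 23604010 counts, with Sham_H2O2 replicates 1 and 3 the shallowest at 7762174 and 6472476. All 34 sensory neuron markers were measured, and the neuropeptide gene Calca was at 1285 CPM or more in each of the 6 libraries. CPM are counts relative to the total of the library, with totals scaled by TMM, a method that assumes most genes do not differ. On the first principal component of the 6 libraries, which held 49.9% of the variance, Sham_H2O2 replicate 3 was at -56.5 and Sham_Saline replicate 2 at 58.1, at opposite ends, with the other 4 between -13.0 and 12.9. Gene lists whose balance turned on either of these 2 libraries are given without them as well. In whole ganglia, fewer cells of a type and less RNA per cell cannot be told apart.

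No gene passed the test between peroxide and saline. Of 15730 genes, 0 (0%) had an adjusted p under 0.05 in edgeR's quasi-likelihood test, and the smallest adjusted p was 0.449. An unadjusted p under 0.05 was found for 1440 genes (9.15%), of which 520 (3.31%) were higher and 920 (5.85%) lower with peroxide. DESeq2's Wald test called 4 genes, Gpr151, Klf15, Fam107a and Hif3a, with the lowest adjusted p at 0.0462. The count at an unadjusted p under 0.05 moved widely with single libraries. It was 436 without Sham_Saline replicate 2, 486 without Sham_H2O2 replicate 3, 829 without Sham_H2O2 replicate 1, 2192 without Sham_Saline replicate 3, 4019 without Sham_H2O2 replicate 2 and 5135 without Sham_Saline replicate 1, while the number called stayed at 0 in each.

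The precision of the comparison was read from the fit of all 18 samples, which shares 1 estimate of each gene's spread. The median SD of log2 CPM was 0.251 in Sham_H2O2 and 0.295 in Sham_Saline, and 0.12 to 0.20 in the other groups. The intervals may thus be too narrow for these 2 groups and do not firmly bound what could have been missed. With only the 6 samples in the fit, 346 genes had an unadjusted p under 0.05 and edgeR's smallest adjusted p was 0.845. The median standard error of a log2 difference was 0.19, and the 95% interval of the difference lay within 1 log2 unit of no change for 12370 genes (78.6%) and within 0.5 units for 33.6%. The groups did not overlap for 854 genes (5.43%), 339 higher with peroxide (2.16%) and 515 lower (3.27%). Differences of at least 1 log2 unit were fitted for 228 genes. The median difference over all genes was -0.02.

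Among genes higher with peroxide that had a mean of at least 50 counts and no overlap between groups, the smallest p belonged to Gpr151. It encodes an orphan receptor of sensory neurons and is known to rise after nerve injury. Gpr151 (chromosome 18, 42577881 to 42579652, minus strand, GRCm38) was at 11.4, 9.87 and 8.42 CPM in Sham_H2O2 replicates 1, 2 and 3 and at 5.05, 6.15 and 5.23 CPM in Sham_Saline. The lowest peroxide library was above the highest saline library, as the rule of choice required. The fitted log2 difference was 0.85 (95% interval 0.50 to 1.21), with an adjusted p of 0.449 in edgeR and 0.0462 in DESeq2.

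Next by p under the same rule was Gadd45a, a growth arrest and DNA damage gene that is also induced in injured neurons. Gadd45a (chromosome 6, 67035096 to 67037457) was at 78.9, 57.9 and 67.4 CPM with peroxide and at 37.9, 48.9 and 50.4 CPM with saline. The lack of overlap was again part of the rule. The log2 difference was 0.57 (95% interval 0.30 to 0.84). The injury marker Atf3 (chromosome 1, 191170296 to 191218039) was at 121, 96.4 and 79.5 CPM with peroxide and at 55.9, 72.6 and 59.4 CPM with saline. Its lowest peroxide value was 79.5 against a highest saline value of 72.6, and the log2 difference was 0.66 (95% interval 0.29 to 1.03).

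The other genes that led in this direction were C130071C03Rik at a log2 difference of 1.02, Trmt13 at 0.75, Tmem88b at 0.70, Steap1 at 0.69 and Ephx4 at 0.44. C130071C03Rik is a long non-coding RNA locus, Trmt13 encodes a transfer RNA methyltransferase, Steap1 a metalloreductase family protein of the cell membrane and Ephx4 an epoxide hydrolase. For Ephx4 the 3 peroxide libraries lay close together, at 20.3, 19.6 and 19.9 CPM, above saline values of 14.1, 14.2 and 15.7 CPM. Laminectomy was at 20.6 ± 0.854 CPM (SD, n = 3) for the same gene, so the saline group was the lower of the 3 groups. The groups of peroxide and saline did not overlap for any of these 5 genes, which is how they were chosen.

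Among genes lower with peroxide that had a mean of at least 50 counts and no overlap between the groups, those with the smallest p were Klf15, Fam107a, Acer2, Ace, Per1, Fkbp5, Zfp276 and Aebp1. Klf15, a transcription factor gene that glucocorticoids are known to induce, was at 3.23, 5.07 and 5.24 CPM with peroxide and at 8.10, 13.7 and 10.6 CPM with saline. Every peroxide library was below every saline library, and the log2 difference was -1.24 (95% interval -1.80 to -0.68). Fam107a, a stress-responsive gene whose product binds actin, was at 28.8, 26.0 and 36.1 CPM with peroxide and at 51.1, 54.2 and 47.0 CPM with saline. Its log2 difference was -0.76 (95% interval -1.10 to -0.41). Laminectomy was at 69.3 ± 3.24 CPM and axotomy at 51.1 ± 9.91 CPM for Fam107a, both above the peroxide group.

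Hif3a, a member of the hypoxia-inducible factor family, was outside the rule for named genes with a mean of 35.8 counts and is given here, chosen after its values were seen, because DESeq2 called it. It was at 0.905, 0.407 and 0.636 CPM with peroxide and at 3.48, 3.92 and 1.97 CPM with saline. Acer2, an alkaline ceramidase gene, was at 1.81, 3.80 and 4.13 CPM with peroxide and at 8.10, 7.33 and 7.46 CPM with saline, a log2 difference of -1.21. Both genes had all peroxide libraries below all saline libraries, which for Acer2 was part of the rule of choice. Ace encodes angiotensin-converting enzyme and had a log2 difference of -0.63, while Zfp276, a zinc finger gene, and Aebp1, a gene of the extracellular matrix, were both at -0.90. For Ace the means were 4.36 CPM in laminectomy, 4.35 CPM with peroxide and 6.82 CPM with saline. For Aebp1 they were 11.3, 10.1 and 19.1 CPM, and for Zfp276 9.11, 7.32 and 13.8 CPM, in the same order. Laminectomy means of Klf15 and Acer2 were 9.49 and 9.35 CPM, beside peroxide means of 4.52 and 3.25 CPM.

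Injury-associated genes were on balance higher with peroxide than with saline, by amounts well under those after axotomy. Of 35 genes on a list of injury-associated and regeneration-associated genes, 34 were measured, all but Vip. The fitted log2 difference was above 0 for 28 of 34, with a median of 0.35, where 47.5% of all genes were above 0 and their median was -0.02. At an unadjusted p under 0.05, 14 members were higher and 0 lower, and 10 did not overlap, all higher. Over all genes, 3.31% were higher at that p and 2.16% were higher without overlap. None passed the adjusted threshold, and earlier results of these samples were known when the list was made, so its direction is not independent evidence. Without Sham_H2O2 replicate 3 and Sham_Saline replicate 2, 33 of 34 were above 0, the median was 0.32 and 10 had an unadjusted p under 0.05; the count was 8 without Sham_H2O2 replicate 1 and 8 without Sham_H2O2 replicate 3. With only the 6 samples in the fit it was 6 of 32 measured. Such a p was found over all genes for 454, 829, 486 and 346 genes in these fits, in the same order.

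**Figure D1:**
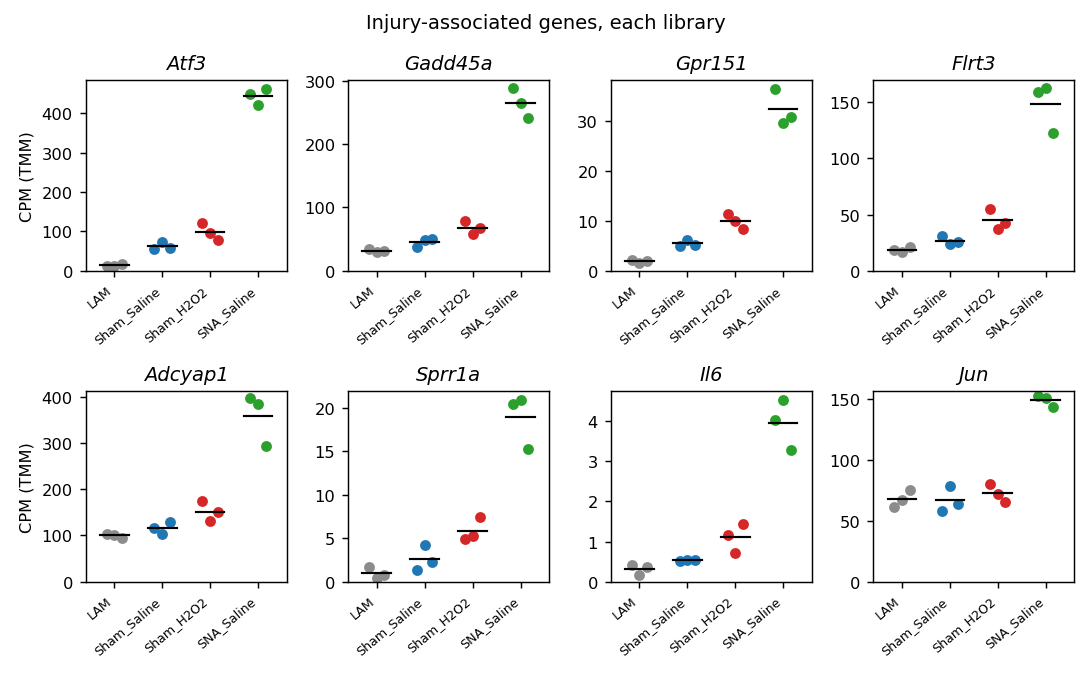
CPM (vertical axis, scaled by TMM) of 8 injury-associated genes in each library of LAM, Sham_Saline, Sham_H2O2 and SNA_Saline, 3 libraries a group; points are libraries and bars are group means. For Atf3 the peroxide libraries sit at 79.5 to 121 CPM, above the saline libraries and far below the 3 axotomy libraries at 420.0 to 462 CPM.

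Transcription factors of the injury program did not move as a block. Atf3 had the difference given above, and Klf6, a zinc finger factor, was at 111, 93.9 and 119.5 CPM with peroxide and at 94.4, 73.4 and 84.3 CPM with saline, a log2 difference of 0.36 (95% interval 0.10 to 0.62) with overlap. Jun was at 80.4, 71.6 and 65.3 CPM with peroxide and at 57.9, 78.5 and 63.3 CPM with saline, a log2 difference of 0.12 (95% interval -0.13 to 0.38). Sox11 had a log2 difference of 0.03 (95% interval -0.71 to 0.77) at 18.2 counts on average, and Stat3 of -0.14 (95% interval -0.46 to 0.17). For Jun the interval leaves out a difference of 1 log2 unit in either direction, while for Sox11 it is wide.

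Neuropeptides and secreted factors of the program also differed among themselves. Adcyap1, which encodes the neuropeptide PACAP, was at 175, 131 and 149.9 CPM with peroxide and at 116, 102 and 130.1 CPM with saline, a log2 difference of 0.39 (95% interval 0.07 to 0.71). The lowest peroxide value and the highest saline value differ by less than 1 CPM, so the groups only just failed to overlap. Nts (neurotensin) had a log2 difference of 0.77, with overlap, Bdnf (brain-derived neurotrophic factor) 0.33, with overlap, and Npy (neuropeptide Y) 0.53 with an interval of -0.57 to 1.63. Gal, the gene for galanin, was at 18.1, 20.1 and 12.2 CPM with peroxide and at 11.0, 20.8 and 20.9 CPM with saline, and its log2 difference was -0.04 (95% interval -0.56 to 0.48). Il6, a cytokine gene with a mean of 11.0 counts, was at 1.16, 0.724 and 1.43 CPM with peroxide and at 0.524, 0.547 and 0.543 CPM with saline, with no overlap.

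Genes of axon growth and adhesion held both larger and smaller differences. Flrt3, for a membrane protein of neurite growth and guidance, was at 55.4, 37.1 and 42.1 CPM with peroxide and at 31.4, 23.8 and 25.4 CPM with saline, a log2 difference of 0.73 (95% interval 0.31 to 1.15). Sprr1a, a growth-promoting gene of injured neurons with near-identical relatives, was at 4.91, 5.21 and 7.47 CPM with peroxide and at 1.29, 4.17 and 2.31 CPM with saline, a log2 difference of 1.14 with an interval of 0.05 to 2.22. Sema6a, a transmembrane semaphorin, had a log2 difference of 0.34 and Fst, the activin antagonist follistatin, 0.43, both without overlap. Gap43, the growth-associated protein of axons, was at 239.6, 225 and 267 CPM with peroxide and at 179, 255 and 264 CPM with saline, and its log2 difference of 0.07 had an interval of -0.19 to 0.32.

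The axotomy group and the peroxide group were compared directly, since reading both against Sham_Saline would share those samples. SNA_Saline and Sham_H2O2 differed at 150 genes (0.954%), 138 higher after axotomy (0.877%) and 12 lower (0.0763%). Of the 34 injury list members 21 rose in axotomy over peroxide and 0 fell, which included Atf3 by 2.17 log2 units (edgeR adjusted p = 8.26e-06), Gadd45a by 1.96 (9.09e-07), Gpr151 by 1.70 (4.06e-05) and Jun by 1.04 (0.000194). Npy rose by 2.76, Sox11 by 1.89 and Gal by 1.23, genes whose peroxide and saline values overlapped. The 12 genes that were lower after axotomy included Oprl1, the nociceptin receptor, Htr3b and Chrna6, receptor subunits for serotonin and acetylcholine. Sham_H2O2 means for these were 22.5, 21.7 and 45.8 CPM, beside Sham_Saline means of 24.2, 22.4 and 45.0 CPM and SNA_Saline means of 14.1, 14.5 and 30.5 CPM. The count of 150 was 86 without SNA_Saline replicate 1, 87 without Sham_H2O2 replicate 1 and 74 without Sham_H2O2 replicate 2.

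Peroxide at the sham nerve and laminectomy differed at 23 genes (0.146%), 15 higher with peroxide (0.0954%) and 8 lower (0.0509%), a comparison added after the data were seen. Of the 34 injury list members 9 rose, which included Atf3 by 2.83 log2 units, Gpr151 by 2.40, Plaur by 1.38, Flrt3 by 1.25, Gadd45a by 1.10, Fst by 1.10 and Sema6a by 1.06. Atf3 averaged 13.8 ± 2.64 CPM in LAM, 98.8 ± 20.7 CPM in Sham_H2O2 (SD, n = 3 each) and 62.6 CPM in Sham_Saline, so the saline sham was also above laminectomy. The genes that were lower with peroxide than with laminectomy were Fam107a, Acer2, Saa3, Ccl6, Spp1, Ifitm1, C3 and Ms4a6d. Saa3, Ccl6, C3 and Ms4a6d are genes of the acute-phase or myeloid response, and Saa3 was at 0.0681 CPM with peroxide, 0.0733 CPM with saline and 3.99 CPM in LAM. Without single libraries the count of 23 was 10 (Sham_H2O2 replicate 1), 11 (Sham_H2O2 replicate 2), 45 (Sham_H2O2 replicate 3), 13 (LAM replicate 1), 14 (LAM replicate 2) and 12 (LAM replicate 3).

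Genes of the NRF2 pathway did not lie higher with peroxide as a group. All 28 genes of the list were measured, 11 of 28 were above 0, and the median log2 difference was -0.13. At an unadjusted p under 0.05, 1 was higher (Nqo1) and 2 were lower (Mt1 and Mt2), where 3.31% and 5.85% of all genes were. The interval of the difference lay within 1 log2 unit for 21 of 28 members and within 0.5 units for 11. The median was 0.01 without Sham_Saline replicate 2 and 0.05 without both libraries at the ends of the first component, so its sign rested on that library. Without Sham_Saline replicate 1, 5 members were higher and 9 lower at an unadjusted p under 0.05, and without Sham_H2O2 replicate 2 these were 3 and 7. Such a p was also common over all 15730 genes in these fits, at 5135 and 4019 genes.

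**Figure D2:**
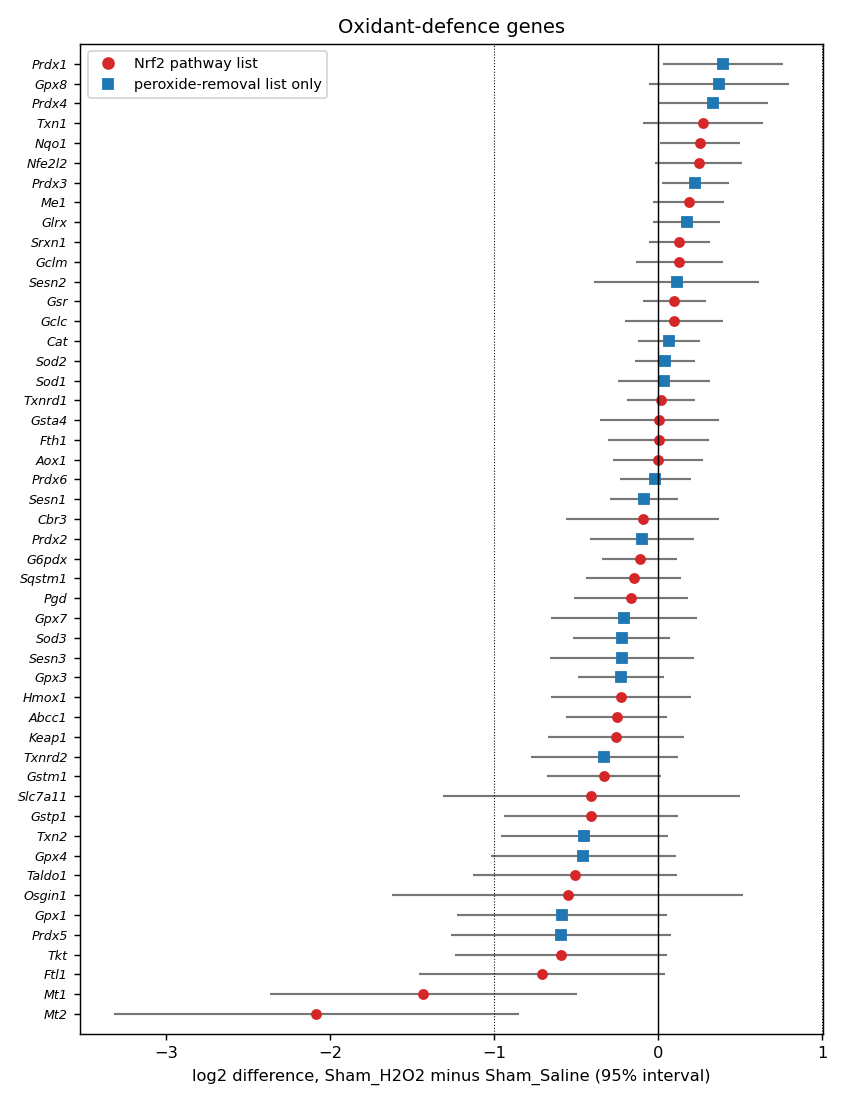
Log2 difference between Sham_H2O2 and Sham_Saline (horizontal axis) with its 95% interval for genes of the NRF2 pathway (red circles) and further genes that remove superoxide and peroxide (blue squares), from edgeR with 3 libraries a group; dotted lines mark 1 log2 unit. Most intervals cover 0 and lie inside the dotted lines, and Mt2 at -2.08 is the lowest.

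Of the NRF2 targets, Nqo1, a quinone reductase, was at 15.3, 14.9 and 15.6 CPM with peroxide and at 13.3, 11.4 and 13.6 CPM with saline. All peroxide libraries were above all saline libraries, and the log2 difference was 0.26 (95% interval 0.01 to 0.50). Laminectomy was at 15.8 ± 1.44 CPM and axotomy at 14.4 ± 1.47 CPM for Nqo1 (SD, n = 3 each). The peroxide group was thus at the level of laminectomy, and the saline group was the lower. Hmox1 (heme oxygenase 1) was at 26.3, 21.3 and 20.5 CPM with peroxide and at 20.9, 31.5 and 27.2 CPM with saline, a log2 difference of -0.23 (95% interval -0.65 to 0.20). Srxn1, for the sulfiredoxin that repairs overoxidised peroxiredoxins, was at 622, 579.97 and 508 CPM with peroxide and at 507, 523 and 534 CPM with saline, and the log2 difference was 0.13 (95% interval -0.06 to 0.32). Srxn1 rose by 0.81 log2 units in axotomy over peroxide (edgeR adjusted p = 9.76e-05) and Txnrd1, thioredoxin reductase, by 0.46 (0.0301), and these were the 2 of 28 members that differed there. Glutathione synthesis genes stayed close to saline, with Gclm at 0.13 (95% interval -0.14 to 0.39), Gclc at 0.10 (-0.20 to 0.40) and the cystine carrier Slc7a11 at -0.41 with a wide interval of -1.31 to 0.50.

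Promoters of the NRF2 list were searched for the core of the antioxidant response element, TGACNNNGC, on both strands in RefSeq windows of 250 bases before to 50 bases after the gene start (GRCm38.p6). Of 23 members with a window, 8 held it (34.8%), where 14.0% of 27025 symbols with a window did. The median log2 difference of these 8 was 0.07, and 5 of 8 were above 0. The matches of Gclm (chr3:122245398-122245456, plus strand, match read on the reverse strand) and Mt2 (chr8:94172514-94172572, plus strand) are shown in capitals. They fit the same pattern, with different bases at its N positions, before a gene at 0.13 and before one at -2.08. Binding of NRF2 at either match was not tested.
Gclm: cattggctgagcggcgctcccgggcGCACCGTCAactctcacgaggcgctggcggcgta
Mt2: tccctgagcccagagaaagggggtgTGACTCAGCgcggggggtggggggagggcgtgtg

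Enzymes that break down superoxide and peroxide were close to saline. All 24 of the list were measured, 12 of 24 were above 0, and the median was -0.00. Cat, the peroxide-splitting enzyme catalase, was at 198, 181 and 215 CPM with peroxide and at 198, 179 and 191 CPM with saline, a log2 difference of 0.07 (95% interval -0.12 to 0.25). Superoxide dismutases gave 0.03 for Sod1 and 0.04 for Sod2, with intervals of -0.25 to 0.32 and -0.14 to 0.22. The 3 members with an unadjusted p under 0.05 were all peroxiredoxins, Prdx1 at 0.40, Prdx4 at 0.34 and Prdx3 at 0.23, and the groups overlapped for each. Prdx1 was at 467, 359 and 646 CPM with peroxide and at 349, 324 and 445 CPM with saline, with the highest value in Sham_H2O2 replicate 3. Means of Prdx1 were 500 CPM in laminectomy, 491 CPM with peroxide and 373 CPM with saline. Those of Prdx3 were 159, 156 and 133 CPM, in the same order. The count of 3 higher and 0 lower, where 3.31% and 5.85% of all genes were, moved with single libraries. It was 1 and 0 without Sham_H2O2 replicate 3, 0 and 0 without Sham_Saline replicate 2 and 0 and 8 without Sham_Saline replicate 1. It was 6 and 1 without Sham_H2O2 replicate 2, and 6 and 0 without Sham_Saline replicate 3. Of all 15730 genes, 486, 436, 5135, 4019 and 2192 had such a p in these fits, in the same order. The glutathione peroxidase Gpx1 was at 73.1, 82.8 and 73.1 CPM with peroxide and at 60.0, 164 and 121 CPM with saline, a log2 difference of -0.59 (95% interval -1.23 to 0.05), so its saline values spanned those of peroxide.

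NADPH oxidases make superoxide that yields peroxide, and 13 of 16 genes of these enzymes and their subunits were measured. A log2 difference above 0 was fitted for 3 of 13, and the median was -0.24. At an unadjusted p under 0.05, 3 were lower (Cyba, Ncf1 and the proton channel Hvcn1), where 5.85% of all genes were. The summed level of the 13 genes was not lower, at 514 ± 38.9 CPM with peroxide and 485 ± 32.3 CPM with saline (SD, n = 3 each). None (0) was lower at that p without Sham_H2O2 replicate 1 or without Sham_Saline replicate 2, where 829 and 436 of 15730 genes had such a p. The median stayed between -0.34 and -0.19 without any single library. Cyba, the p22phox subunit, was at 1.42, 2.85 and 1.91 CPM with peroxide and at 2.43, 6.70 and 4.41 CPM with saline, a log2 difference of -1.05 (95% interval -1.89 to -0.20), with overlap. Ncf1, the p47phox subunit, was at 4.14, 5.98 and 5.09 CPM with peroxide and at 6.10, 7.50 and 7.46 CPM with saline, at -0.44 and without overlap. Laminectomy averaged 2.00 CPM for Cyba and 7.24 CPM for Ncf1, beside peroxide means of 2.06 and 5.07 CPM. The catalytic subunit Cybb of the phagocyte enzyme was at -0.21 (95% interval -0.77 to 0.35). Neutrophil marker genes were also lower on balance, with a median of -0.57, and macrophage markers were at a median of -0.18, or 0.02 without Sham_H2O2 replicate 1. The part of these cells in the values of the oxidase genes was not tested.

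Genes of PI3K and Akt signalling, a growth and survival pathway, lay near the median of all genes. All 20 of the list were measured, 9 of 20 were above 0, and the median was -0.07. The 3 members lower at an unadjusted p under 0.05 were the kinase genes Akt1 at -0.74 and Akt2 at -0.36 and the growth inhibitor Tsc2 at -0.43, each with overlapping groups. At that p, 5.85% of all genes were lower. Means of Akt1 were 63.9 CPM in laminectomy, 79.5 CPM with peroxide and 134 CPM with saline. None (0) of the list was lower at that p without Sham_H2O2 replicate 1 or without Sham_Saline replicate 2. In those fits 829 and 436 of 15730 genes had such a p. Without Sham_Saline replicate 1 there were 7 higher and 4 lower, in a fit where 5135 of 15730 genes had such a p. Genes for retrograde transport and nuclear import, which carry signals from axon to soma, were above 0 for 13 of 20, with a median of 0.07. With offsets for GC share and length, added after the data were seen, 6 of 20 were above 0 and the median was -0.05, so the balance turned, and without Sham_Saline replicate 2 it was 10 of 20 with a median of 0.01. At an unadjusted p under 0.05, 2 of these were lower, the dynactin gene Dctn1 at -0.86 and the motor gene Dync1h1 at -0.53. This count was 0 without either Sham_H2O2 replicate 3 or Sham_Saline replicate 2, where 486 and 436 of 15730 genes had such a p. Dctn1 was at 153, 199 and 71.2 CPM with peroxide and at 166, 411 and 191 CPM with saline, so the lowest value was in Sham_H2O2 replicate 3 and the highest in Sham_Saline replicate 2.

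Glucocorticoid-responsive genes were on balance lower with peroxide. All 15 of the list were measured, 13 of 15 had a fitted difference below 0, and the median log2 difference was -0.54, the lowest of the 14 response and pathway lists. At an unadjusted p under 0.05, 8 were lower and 0 higher, and 5 did not overlap, all lower. Over all genes, 5.85% were lower at that p and 3.27% were lower without overlap. None passed the adjusted threshold in edgeR. The count of 8 was 5 without Sham_Saline replicate 2 and 6 without both that library and Sham_H2O2 replicate 3, where the median was -0.44. Of all 15730 genes, 436 and 454 had an unadjusted p under 0.05 in these fits, in the same order.

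**Figure D3:**
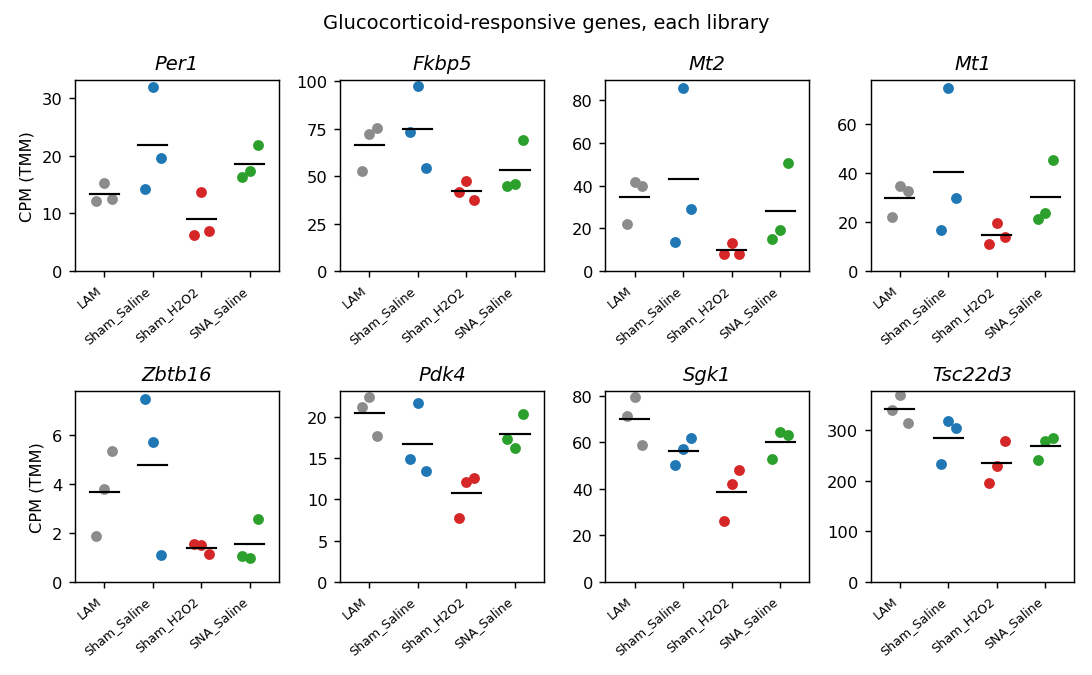
CPM (vertical axis, scaled by TMM) of 8 glucocorticoid-responsive genes in each library of LAM, Sham_Saline, Sham_H2O2 and SNA_Saline, 3 libraries a group; points are libraries and bars are group means. For Fkbp5 the peroxide libraries lie at 37.2 to 47.6 CPM, below the saline libraries at 54.4 to 97.7 CPM.

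Fkbp5, a chaperone of the glucocorticoid receptor and one of its targets, was at 41.9, 47.6 and 37.2 CPM with peroxide and at 73.4, 97.7 and 54.4 CPM with saline. The groups did not overlap, and the log2 difference was -0.83 (95% interval -1.26 to -0.40). Per1, a circadian clock gene that glucocorticoids also induce, was at 6.21, 13.8 and 6.99 CPM with peroxide and at 14.3, 31.9 and 19.5 CPM with saline, a log2 difference of -1.22 (95% interval -1.85 to -0.59). Within each group replicate 2 was the highest. The kinase genes Sgk1 and Pdk4 were at -0.54 and -0.63, also without overlap. Zbtb16, a zinc finger factor, was at 1.55, 1.49 and 1.11 CPM with peroxide and at 7.48, 5.73 and 1.09 CPM with saline, so Sham_Saline replicate 3 was at the level of the peroxide group. Tsc22d3, which encodes the glucocorticoid-induced leucine zipper, was at -0.28 (95% interval -0.57 to 0.02) and Dusp1, a phosphatase, at 0.13 (-0.11 to 0.38).

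The metallothioneins Mt1 and Mt2, small metal-binding proteins induced by metals, oxidants and glucocorticoids, are on both the NRF2 and the glucocorticoid list. Mt2 (chromosome 8) was at 8.15, 13.3 and 8.10 CPM with peroxide and at 13.7, 85.6 and 29.2 CPM with saline. The ranges only just failed to overlap, Sham_Saline replicate 2 was far above the rest, and the log2 difference was -2.08 (95% interval -3.32 to -0.85). Mt1 was at 11.0, 19.5 and 14.0 CPM with peroxide and at 16.9, 74.9 and 29.9 CPM with saline, at -1.43 and with overlap. These are near-identical neighbours, and how their shared reads were counted is not given in the sources used here. Without single libraries or under another setting the difference of Mt2 ran from -2.50 to -0.94.

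A palindromic glucocorticoid response element (GNACA, 3 further bases and TGTNC) was searched for on both strands. It was in the same RefSeq windows of 2 of 13 list members (15.4%), Mt1 and Sgk1, and of 0.537% of all symbols. The Mt1 window (chr8:94178970-94179032, plus strand, GRCm38.p6) is shown because the gene was among the lowest with peroxide, with the match in capitals.
Mt1: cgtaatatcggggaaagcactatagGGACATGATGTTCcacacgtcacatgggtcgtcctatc

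Because Per1 is also a clock gene, 16 circadian clock genes were listed after the data were seen. A difference below 0 was fitted for 10 of 16 with a median of -0.08. At an unadjusted p under 0.05, 2 were lower, where 5.85% of all genes were: Per1, and Nr1d1 at -0.96. Nr1d1, the repressor REV-ERB alpha, was at 15.6, 18.7 and 8.10 CPM with peroxide and at 17.0, 49.8 and 17.1 CPM with saline, with its difference carried by Sham_Saline replicate 2. Arntl (BMAL1) was at 0.19 (95% interval -0.39 to 0.78) and Dbp at -0.21 (-0.91 to 0.48). The hours of tissue collection are not in the labels, and their part in these values was not tested.

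Cytokine and chemokine genes leaned higher. Of 22 listed, 14 were measured, 9 of 14 were above 0 and the median was 0.28, with 5 higher at an unadjusted p under 0.05 and 3 higher without overlap, where 3.31% and 2.16% of all genes were. Cxcl10, an interferon-induced chemokine, was at 1.94, 2.17 and 16.2 CPM with peroxide and at 1.33, 2.44 and 1.43 CPM with saline, so a single library, Sham_H2O2 replicate 3, carried its log2 difference of 1.83. The same library had the highest values of Ccl7 (6.20 CPM, beside 2.20 and 2.08) and Ccl12 (6.20 CPM, beside 2.85 and 1.63), chemokines for monocytes. Without it, 1 of 14 was higher at an unadjusted p under 0.05 and 2 were lower, in a fit where 486 of 15730 genes had such a p. Cxcl12, a chemokine for leukocytes and progenitor cells, was spread more evenly, at 38.2, 39.1 and 46.7 CPM with peroxide and at 35.4, 29.0 and 31.1 CPM with saline, with no overlap and a log2 difference of 0.37 (95% interval 0.13 to 0.62).

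Stress and damage lists had medians near that of all genes. Of 26 p53 targets and DNA damage genes 13 were above 0, and the 2 higher at an unadjusted p under 0.05 were Gadd45a and Pmaip1, the pro-apoptotic NOXA, at 0.57 (95% interval 0.09 to 1.05). Cdkn1a, the cell cycle inhibitor p21, was at -0.07 (95% interval -0.33 to 0.19). The integrated stress and unfolded protein response had a median of -0.11 over 25 genes, with Ddit3, the factor CHOP, at -0.37 (95% interval -0.82 to 0.09) and Nupr1, a stress-induced nuclear protein, at -0.60 without overlap. Heat shock and chaperone genes had a median of -0.09 over 20, with the small heat shock protein Cryab at -0.53. Immediate early genes had a median of -0.05 over 26 of 30 measured, and the 3 at an unadjusted p under 0.05 (Ctgf, Ier2 and Junb) were lower with overlap. Nuclear genes of the respiratory chain had a median of 0.01 over 29, with Cox5a at 0.45 as the only one at an unadjusted p under 0.05. Shares of all genes at that p were 3.31% higher and 5.85% lower. Leaving out Sham_Saline replicate 2 put the medians of the p53 list at 0.03 and of the immediate early genes at 0.06, and leaving out Sham_H2O2 replicate 3 put that of the respiratory chain at -0.04.

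Cell division genes had a lower median than these lists, while their summed level overlapped between the groups. The sums were 141, 119 and 161 CPM with peroxide and 145, 129 and 145 CPM with saline. Of 20 listed 19 were measured, 14 of 19 had a difference below 0, the median was -0.30, and 5 were lower without overlap, where 3.27% of all genes were. Top2a, a topoisomerase of dividing cells, was at 1.94, 2.54 and 3.50 CPM with peroxide and at 6.91, 3.58 and 4.48 CPM with saline, a log2 difference of -0.93 (95% interval -1.64 to -0.23). The highest peroxide library was just under the lowest saline library. Mki67, the proliferation marker Ki-67, was at -0.69 with overlap, and most members were at a few CPM. At an unadjusted p under 0.05, 3 were lower, where 5.85% of all genes were. This count was 1 without Sham_H2O2 replicate 1, without Sham_H2O2 replicate 3 or without Sham_Saline replicate 1. Such a p was found for 829, 486 and 5135 of all 15730 genes in these fits, in the same order. The median stayed between -0.36 and -0.19 without any single library.

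**Figure D4:**
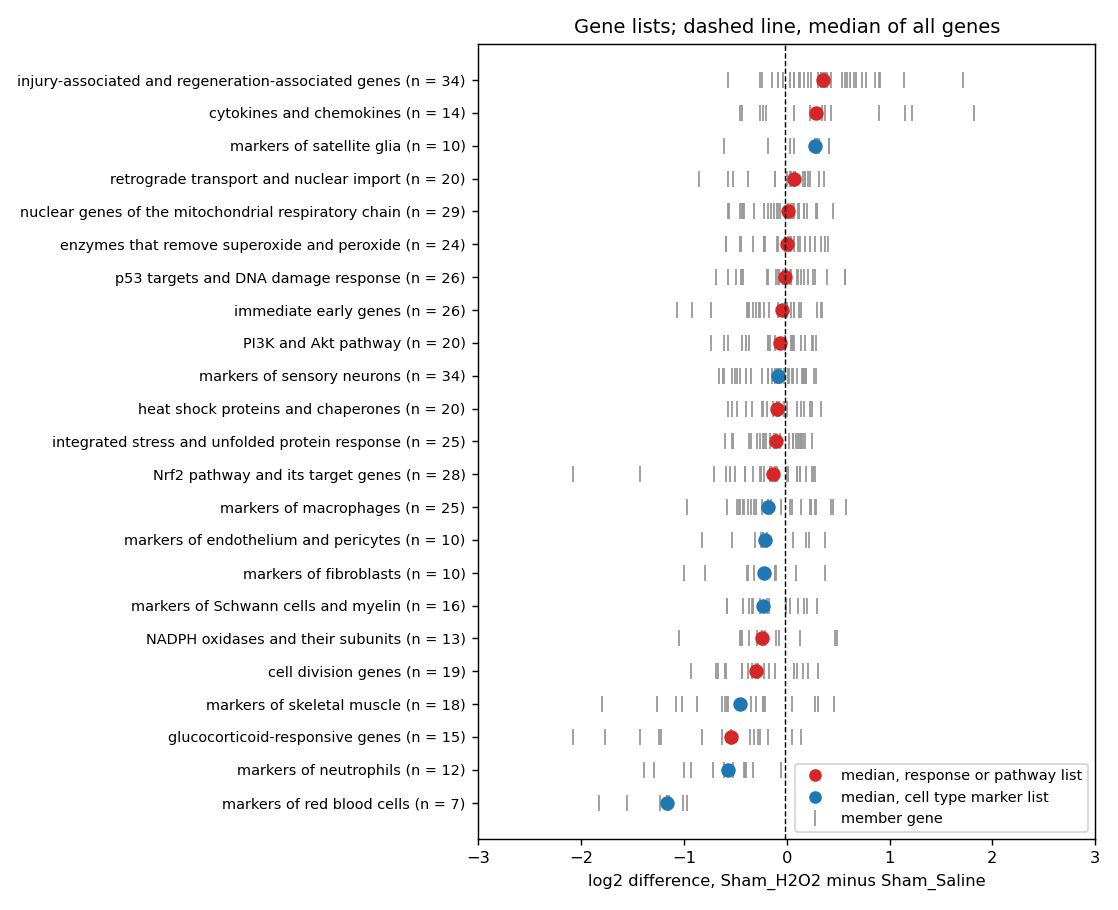
Log2 difference between Sham_H2O2 and Sham_Saline (horizontal axis) for each measured member (grey ticks) and the median (circles; red for response and pathway lists, blue for cell type markers) of 23 gene lists; the dashed line is the median of all genes at -0.02. Medians run from -1.16 for red blood cell markers to 0.35 for injury-associated genes.

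Markers of blood cells had fitted differences below 0. All 7 measured red blood cell markers were lower at an unadjusted p under 0.05, where 5.85% of all genes were, with a median log2 difference of -1.16. Their summed level was 259, 289 and 254 CPM in Sham_H2O2 and 261, 788 and 853 CPM in Sham_Saline, so Sham_Saline replicate 1 was within the range of peroxide. The count of 7 was 4 without Sham_Saline replicate 2 and 4 without Sham_Saline replicate 3. It was 3 without both Sham_Saline replicate 2 and Sham_H2O2 replicate 3, where the median was -1.04. Of all 15730 genes, 436, 2192 and 454 had such a p in these fits, in the same order. Alas2, the heme synthesis enzyme of erythroid cells, was at 10.2, 12.2 and 13.2 CPM with peroxide and at 18.4, 26.6 and 33.8 CPM with saline. The globin genes Hba-a1 and Hba-a2 share nearly all their sequence and were at -1.83 and -1.55, with overlap. All 12 neutrophil markers were below 0, the median was -0.57, and 6 were lower at an unadjusted p under 0.05. Mpo, the neutrophil enzyme that uses hydrogen peroxide to make hypochlorous acid, was at 1.29, 1.90 and 1.11 CPM with peroxide and at 4.43, 3.79 and 3.05 CPM with saline, without overlap, while S100a8 was at -0.06 (95% interval -0.75 to 0.63). Mpo averaged 1.88 CPM in LAM and 1.79 CPM in SNA_Saline, beside 1.44 CPM with peroxide and 3.76 CPM with saline. Summed neutrophil markers were at 251, 291 and 557 CPM with peroxide and at 373, 427 and 619 CPM with saline, with replicate 3 the highest of each group. The count of 6 neutrophil markers was 12 without Sham_H2O2 replicate 3 and 10 with a block for the replicate number. It was 10 without both Sham_H2O2 replicate 3 and Sham_Saline replicate 2. It was 4 without Sham_H2O2 replicate 1, Sham_H2O2 replicate 2 or Sham_Saline replicate 3. Such a p was found for 486, 1092, 454, 829, 4019 and 2192 of all 15730 genes in these fits, in the same order.

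**Figure D5:**
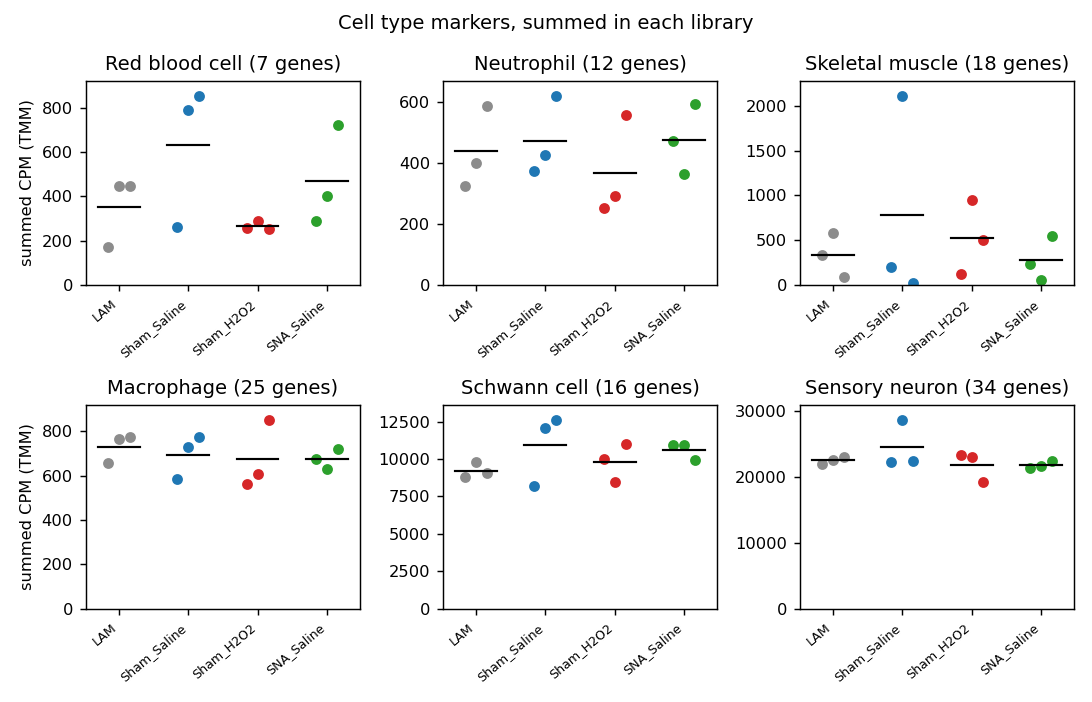
Summed CPM (vertical axis, scaled by TMM) of the marker genes of 6 cell types in each library of LAM, Sham_Saline, Sham_H2O2 and SNA_Saline, 3 libraries a group; points are libraries and bars are group means. Red blood cell markers lie at 254 to 289 CPM in the peroxide libraries and at 261 to 853 CPM in the saline libraries.

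Skeletal muscle markers, which have no source within a clean ganglion, were at a summed 121, 950.1 and 504 CPM with peroxide and at 197, 2108 and 25.2 CPM with saline. The sums varied more within the groups than between them, with replicate 2 the highest in each group, and the median log2 difference over 18 of 19 markers was -0.46. This sign rested on Sham_Saline replicate 2, without which the median was 2.32, with 18 of 18 above 0 and 11 higher at an unadjusted p under 0.05. In that fit 436 of 15730 genes had such a p. Without Sham_H2O2 replicate 3 as well the median was 2.41, and with limma on log2(FPKM + 1) and log2(FPKM + 0.1) it was 0.29 and 0.71. The muscle creatine kinase Ckm spanned 2.20 to 38.7 CPM with peroxide and 0.543 to 173 CPM with saline. Whether blood and muscle in the tissue took part in the differences of other genes was not tested.

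Markers of resident cells had medians nearer 0, and several of these turned on single libraries. Macrophage markers had a median of -0.18 over 25, with 4 lower and 1 higher at an unadjusted p under 0.05. Without Sham_H2O2 replicate 1 the median was 0.02, with 13 of 25 above 0, 4 higher and 1 lower. Cd163, a scavenger receptor of resident macrophages, was at 2.59, 2.90 and 2.86 CPM with peroxide and at 6.48, 4.97 and 4.95 CPM with saline, a log2 difference of -0.97 (95% interval -1.56 to -0.38), and Cx3cr1, a receptor of the same lineage, was at 0.57 with overlap. Satellite glia markers had a median of 0.28 over 10, and the glutamate transporter Slc1a3 was at 0.41 (95% interval 0.02 to 0.79). Without Sham_H2O2 replicate 3, 5 of 10 satellite glia markers were above 0, and without Sham_Saline replicate 2 as well 2 of 10 were, with a median of -0.09. With offsets for GC share and length the median was 0.08, and the mean of the summed level was 2022 ± 258 CPM with peroxide and 2332 ± 544 CPM with saline (SD, n = 3 each). Schwann cell and myelin markers had a median of -0.23 over 16, with the connexin Gjb1 at -0.58, endothelium and pericytes of -0.21 over 10, with the junction protein Cdh5 at -0.31, and fibroblasts of -0.22 over 10, with the collagen Col6a2 at -0.80. Sensory neuron markers had a median of -0.09 over 34, and the 2 with an unadjusted p under 0.05 were lower, Rbfox3 at -0.46 and Th at -0.53, both with overlap. Of these lists, 2 Schwann cell members were lower at that p, or 10 without Sham_Saline replicate 1, and 2 fibroblast members, or 7 without Sham_H2O2 replicate 3. For sensory neuron markers it was 6 higher and 8 lower without Sham_Saline replicate 1. In that fit 5135 of 15730 genes had such a p, beside 486 without Sham_H2O2 replicate 3 and 829 without Sham_H2O2 replicate 1. With every library kept, 3.31% of all genes were higher and 5.85% lower at that p. The sum of the sensory neuron markers was 23343, 23003 and 19201 CPM with peroxide and 22292, 28664 and 22454 CPM with saline.

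Beyond the count table, the deposited FPKM table held 193 Ensembl features outside it with a mean of at least 1 FPKM. None of them (0) passed an adjusted p under 0.05 in limma on log2(FPKM + 1), and 10 had an unadjusted p under 0.05.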

How the data were processed

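Per the labels' protocols, RNA with a RIN above 7.5 was made into libraries with a stranded mRNA kit and sequenced from 1 end, with 6 libraries on each of 3 lanes. The submitters' processing notes name TopHat2 2.0.12, Bowtie2 2.2.3, SAMtools 0.1.19, HTSeq 0.6.0, edgeR 3.8.6, limma 3.22.7, R 3.1.1, FastQC 0.10.1 and the build mm10, with no roles. The authors deposited whole-number counts for 15730 genes, low genes having been removed, and FPKM values for 45904 features; the strand setting of counting is not given in the sources used here, so overlapping and near-identical genes are uncertain. Positions are from GENCODE M21 (GRCm38), which held 15648 of these genes.

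The quasi-likelihood test of edgeR 4.0.16 (R 4.3.3; TMM, filterByExpr) was run on the counts, with all 18 samples in 1 fit and Benjamini-Hochberg adjustment over all genes at 0.05. Errors are the log2 difference over the square root of F, and intervals use the t distribution of the fit. FPKM features outside the count table were tested with limma 3.58.1 (trend). Alternatives were DESeq2 1.42.0, a minimum of 10 counts, no filter, an adjusted p of 0.10, only the groups compared, a block for the replicate number, limma on log2(FPKM + 1) and log2(FPKM + 0.1) and leaving out each library. For the features, other FPKM minimums were also tried. Offsets for GC share and length (splines with 5 degrees of freedom), leaving out 2 libraries together, and the comparison with LAM were added after the data were seen. The quasi-likelihood test was tried on simulated counts in which all groups shared each gene's spread, unlike the groups here. The other methods were not tried on simulated data.

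Named genes were up to 8 of smallest p per direction with a mean of at least 50 counts and no overlap between groups, a fixed list of 27 genes, the member of smallest p of each of 23 lists (5 for the injury list) and any called gene. Members of lists with the values beside them, and genes called in the other comparisons, are named besides. Some genes of these lists are not reported here. The groups compared, the lists (476 entries) and the genes were chosen with earlier results of these data known. Replicate numbers equal the lane numbers in the labels, and same-numbered samples are different mice. Deviations from the group means of same-numbered peroxide and saline libraries correlated across genes at 0.03, 0.56 and 0.31. Other pairs had a mean of -0.15. Deviations of 3 libraries sum to 0 for each gene, so that mean largely follows from the same-numbered pairs and is no separate baseline. Same-numbered peroxide libraries had a mean correlation of -0.28 with SNA_Saline and 0.07 with LAM. Replicates of these groups differed beyond counting noise, with a chi-square over its degrees of freedom of 8.74 or more in each pair. An exact permutation test of 3 against 3 cannot go below 0.1, so single genes were read from the fit across all genes. Reads are not independent molecules, so depth gives counting error only.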

Additional observations from a re-analysis of the deposited data

How the results depend on the processing

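Between peroxide and saline the number of genes called was 0 under every alternative run except DESeq2, with 4. With the replicate block it was 0, with 1092 genes at an unadjusted p under 0.05; with only the 6 samples in the fit 346 genes had such a p. SNA_Saline against Sham_H2O2, 150 genes, gave 242 with DESeq2, 48 with only the groups compared, 501 with GC and length offsets, 463 with these offsets and the replicate block, 129 with the replicate block alone, and 74 to 136 without single libraries. Sham_H2O2 against LAM, 23 genes, gave 59 with DESeq2, 15 with at least 10 counts in every sample, 2 with only the groups compared, 66 with the offsets, 48 with the offsets and the block, 18 with the block alone, and 10 to 45 without single libraries. Injury list members higher at an unadjusted p under 0.05, 14, were 6 with only the groups compared, 12 with the block and 8 to 15 without single libraries. Glucocorticoid list members lower, 8, were 8 with the block and 5 to 10 without single libraries. Features outside the count table, 0 called, were 2 without the FPKM minimum (Cldn13 and Gm11694), 0 with the block and 0 to 1 without single libraries (Cux2, without Sham_H2O2 replicate 2). The replicate block changed no other call. The cause of these changes was not tested. Fits of 2 groups or without a library also held fewer samples, and the part of this was not tested either.

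Of 63 named genes, 13 changed sign in at least 1 alternative and 3 were called in at least 1 (Gpr151, Klf15 and Fam107a, in DESeq2). Depth limits low genes most, since 2 of the 3 peroxide libraries held 7762174 counts or fewer. Where a fit left out 1 library of a group, the remaining libraries were assumed to vary like the other groups.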
